A study of Mus musculus with 6 samples.

Results

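The 10 genes described here encode 6 chains of leukocyte integrins (Itgb2, Itgam, Itgax, Itgal, Itga4 and Itgb7) and 4 of their ligands on endothelium (Madcam1, Vcam1, Icam1 and Icam2). They were chosen by name, were matched to their Ensembl identifiers, and are 10 of the 15663 genes listed for every library. RNA from the RPE-choroid, the retinal pigment epithelium (RPE) with the vascular choroid beneath it, was sequenced from 3 control mice and 3 mice with subretinal fibrosis (SRF). All mice were C57BL/6 by their labels, and males of the C57BL/6J substrain of 8 to 10 weeks by the study's methods. Control mice were untreated. SRF mice received 4 laser burns per eye and a further burn on each lesion 10 days later, and their tissue was taken 20 days after that. A library therefore holds RNA of a whole tissue around a few lesions, and the control mice were not lasered at all.

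Integrins are surface receptors made of 1 alpha and 1 beta chain. The beta 2 chain (Itgb2, CD18) is restricted to leukocytes and pairs with the alpha chains L (Itgal, giving LFA-1), M (Itgam, giving Mac-1) and X (Itgax, CD11c). The alpha 4 chain (Itga4) pairs with the beta 1 chain or with the beta 7 chain (Itgb7). On blood vessels, LFA-1 binds ICAM-1 and ICAM-2, Mac-1 binds ICAM-1, the alpha 4 beta 1 integrin binds VCAM-1, and the alpha 4 beta 7 integrin binds MAdCAM-1, which is best known from the vessels of gut and its lymphoid tissue. These contacts arrest leukocytes on the vessel wall before they leave the blood.

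The 6 libraries held between 13667310 and 24356023 counts, so that 3 counts, taken as the floor for counting error only, are worth between 0.123 and 0.220 CPM (counts scaled to a common library total). RPE genes were abundant in every library: Rpe65, the isomerase of the visual cycle, averaged 4211 ± 619 CPM (SD, n = 3) among control mice and 2954 ± 469 CPM among SRF mice. RNA of photoreceptors, which are no part of the RPE-choroid, was uneven. The mean log2 CPM of 18 photoreceptor genes was 7.69, 5.0 and 4.31 in control mice 1 to 3 and 3.91, 4.79 and 7.79 in SRF mice 1 to 3, so that control mouse 1 and SRF mouse 3 stood apart. Endothelial markers did not separate the groups. Pecam1 averaged 79.4 ± 14.4 CPM in control and 81.4 ± 13.6 CPM in SRF, and Cdh5 averaged 27.5 ± 4.49 and 32.6 ± 6.80 CPM.

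Of the integrin chains, Itgb2 and Itgax were higher in every SRF mouse than in any control mouse, each by about 2.4-fold in mean CPM (2.41 and 2.43). Itgal was higher by 1.52-fold, also without overlap, and Itgam, Itga4 and Itgb7 overlapped between the groups. Of the ligands, Madcam1 was 4.74-fold higher in SRF, without overlap, while Vcam1, Icam1 and Icam2 were far more abundant and overlapped in CPM. In the quasi-likelihood test of edgeR, adjusted by Benjamini-Hochberg over 13454 tested genes, no member passed (adjusted p under 0.05 with a log2 fold change of at least 0.5), where 0% of all tested genes did. At an unadjusted p under 0.05, 943 genes passed in edgeR, 560 of them higher in SRF (4.16% of those tested). These included 3 members, Itgb2, Itgax and Madcam1, of which Madcam1 entered the test through its SRF counts alone, so that its p and call carry no weight of their own. The same 3 genes were called by DESeq2, an alternative count test, which called 153 genes (1.14%), 108 of them higher (0.803%) and 45 lower (0.334%), with no member among the lower ones. The 4 members whose SRF mice all lay above all control mice stand beside 6.71% of all tested genes that did so. No member had all SRF mice below all control mice, against 6.43% of all tested genes. The members were chosen with results of these data known, so their counts against these shares are a description.

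**Figure D1:**
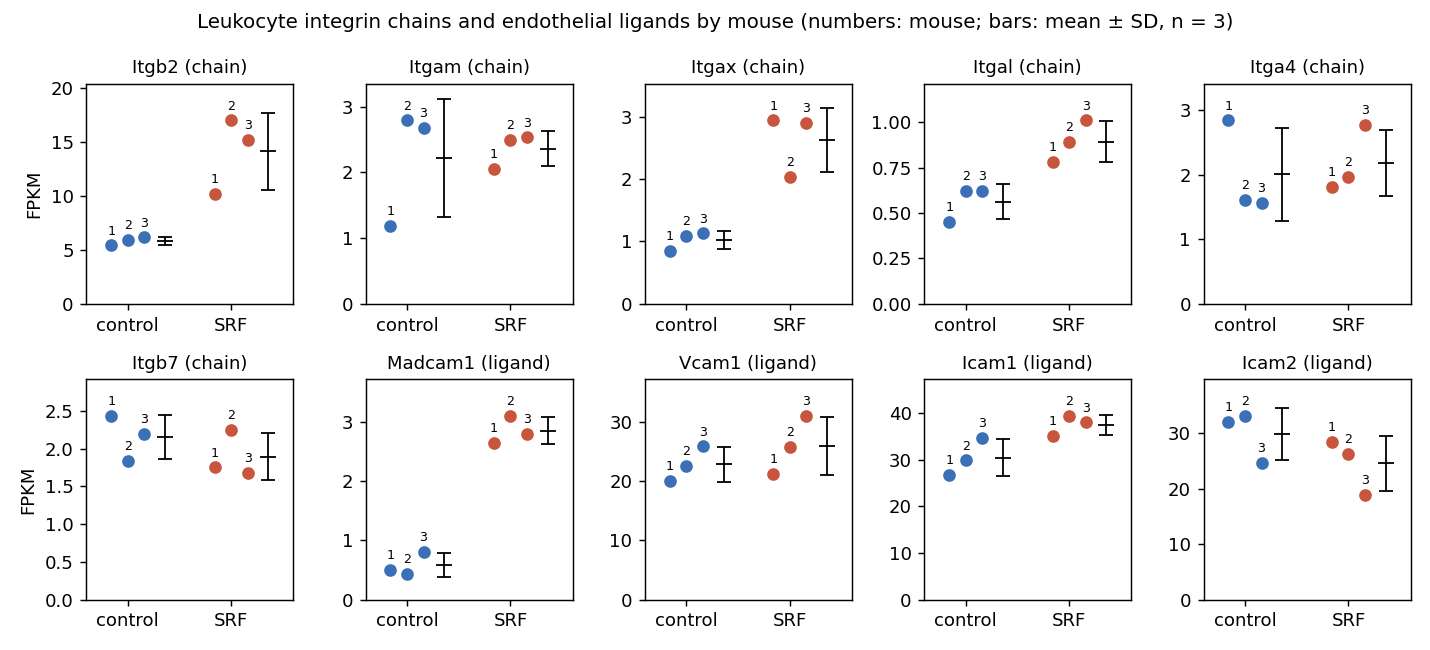
FPKM of the 10 genes in each mouse (y axis, linear, a separate scale for each gene), with control mice in blue, SRF mice in red, the mouse number above each point and bars for the mean and SD of 3 mice. Itgb2, Itgax, Itgal, Madcam1 and, by a small margin, Icam1 show no overlap between groups in FPKM, and Itga4 is highest in control mouse 1 and SRF mouse 3.

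Itgb2 (ENSMUSG00000000290, GRCm38 chr10:77530252-77565708, plus strand) was the most abundant integrin chain of the 6. Its FPKM, a level per transcript length and library size, was 5.41, 5.93 and 6.15 in control mice 1 to 3 and 10.16, 16.97 and 15.19 in SRF mice 1 to 3. The controls lay close together, SRF mouse 1 was the lowest of the SRF mice, and the groups did not overlap. In CPM the means were 16.9 ± 0.549 in control and 40.8 ± 10.1 in SRF, a log2 fold change of 1.27 (SE 0.20). By unadjusted p it stood at rank 23 of all tested genes in edgeR, with an adjusted p of 0.198 (quasi-likelihood test, Benjamini-Hochberg). DESeq2 gave an adjusted p of 6.1e-05, and over all 25 alternative settings the adjusted p ran from 6.4e-13 to 1.0. DESeq2 called Itgb2 after each single mouse was left out.

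Itgax (ENSMUSG00000030789, chr7:128129547-128150657, plus strand), a chain of dendritic cells and of some macrophages, was at 0.85, 1.09 and 1.13 FPKM in control mice and at 2.94, 2.04 and 2.90 FPKM in SRF mice. The lowest SRF mouse, mouse 2, was still above the highest control. Its CPM was 4.21 ± 0.620 in control and 10.2 ± 1.86 in SRF (log2 fold change 1.27, SE 0.25), and its adjusted p was 0.264 in edgeR and 0.00569 in DESeq2, with a range of 0.00569 to 1.0 over the 25 settings. DESeq2 did not call it without SRF mouse 1 (adjusted p = 0.0715) or without both photoreceptor-rich libraries (adjusted p = 0.0516).

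Itgam (ENSMUSG00000030786, chr7:128062640-128118491, plus strand), the alpha chain of Mac-1 on macrophages, microglia and neutrophils, did not move with them. Its FPKM was 1.18, 2.79 and 2.68 in control mice and 2.05, 2.49 and 2.53 in SRF mice. Control mouse 1 was the lowest of all 6 mice, the other controls were the highest, and the SRF mice lay between them. The CPM was 10.6 ± 4.31 in control and 10.8 ± 1.24 in SRF, with a log2 fold change of 0.03 (SE 0.34) whose sign depended on single mice: it was -0.27 without control mouse 1. Gm49368, an annotated gene on the same strand that overlaps Itgam, is not listed in the tables.

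Itgal (ENSMUSG00000030830, chr7:127296260-127335138, plus strand), the alpha chain of LFA-1 and the lowest of the 10 genes per length, was at 0.45, 0.62 and 0.62 FPKM in control mice and at 0.78, 0.89 and 1.01 FPKM in SRF mice. Its groups did not overlap, but the values rest on 32 to 87 counts per library. Its CPM was 2.78 ± 0.350 in control and 4.22 ± 0.627 in SRF (log2 fold change 0.60, SE 0.29), with an adjusted p of 0.778 in edgeR and 0.903 in DESeq2.

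Itgam and Itgax lie side by side on chromosome 7, with 11055 bases from the end of Itgam to the annotated start of Itgax and 1 gene between them. Itgal ends 727501 bases before Itgam. The 250 bases before the RefSeq start of Itgam and of Itgax (GRCm38.p6, plus strand, chr7:128062390-128062639 for Itgam and chr7:128129300-128129549 for Itgax) are shown 5′ to 3′. Capitals mark GAGGAA on either strand, the core of the purine-rich boxes that the myeloid factor PU.1 binds. Whether these letters bear on the levels was not tested.
Itgam: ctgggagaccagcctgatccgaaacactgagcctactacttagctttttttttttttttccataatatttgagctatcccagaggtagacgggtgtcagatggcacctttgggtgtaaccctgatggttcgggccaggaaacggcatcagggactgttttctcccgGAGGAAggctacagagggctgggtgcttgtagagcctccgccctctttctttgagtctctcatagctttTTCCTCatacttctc
Itgax: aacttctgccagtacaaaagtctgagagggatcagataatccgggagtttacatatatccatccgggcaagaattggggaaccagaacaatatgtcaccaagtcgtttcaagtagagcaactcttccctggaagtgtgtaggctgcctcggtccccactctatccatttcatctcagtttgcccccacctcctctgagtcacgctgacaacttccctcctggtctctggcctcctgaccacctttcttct
The Itgam window holds GAGGAA 84 to 79 bases before the start on the plus strand and 15 to 10 bases before it on the minus strand, where it reads TTCCTC. These letters are not in the Itgax window. Sites that depart from them are not marked, so nothing about PU.1 at Itgax can be read from their absence there. Over 32851 promoter entries, 23.3% of windows of this length held GAGGAA on either strand. RefSeq promoters were found for 6 of the 10 genes, with no entry used here for Itgb2, Itgal, Vcam1 and Icam2.

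The makeup of the alpha chains that pair with beta 2 differed by mouse. Of the summed FPKM of Itgam, Itgax and Itgal, Itgam gave 47.6%, 62.0% and 60.5% in control mice and 35.5%, 45.9% and 39.3% in SRF mice. Itgax gave 34.3%, 24.2% and 25.5% in control mice and 51.0%, 37.6% and 45.0% in SRF mice. Every SRF mouse was below every control for the Itgam share and above every control for the Itgax share, while the Itgal share (13.8% to 18.1% in control, 13.5% to 16.4% in SRF) overlapped. The FPKM ratio of Itgax to Itgam was 0.720, 0.391 and 0.422 in control mice and 1.43, 0.819 and 1.15 in SRF mice. For each of these differences in Itgam share, Itgax share and their ratio, the exact permutation test, two-sided, gave p = 0.1, the smallest that 3 mice against 3 allow (0.2 after Benjamini-Hochberg adjustment over 12 ratios and shares). Control mouse 1, rich in photoreceptor RNA, was nearest to the SRF mice in all 3 measures, and the part of that RNA in them was not tested.

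**Figure D2:**
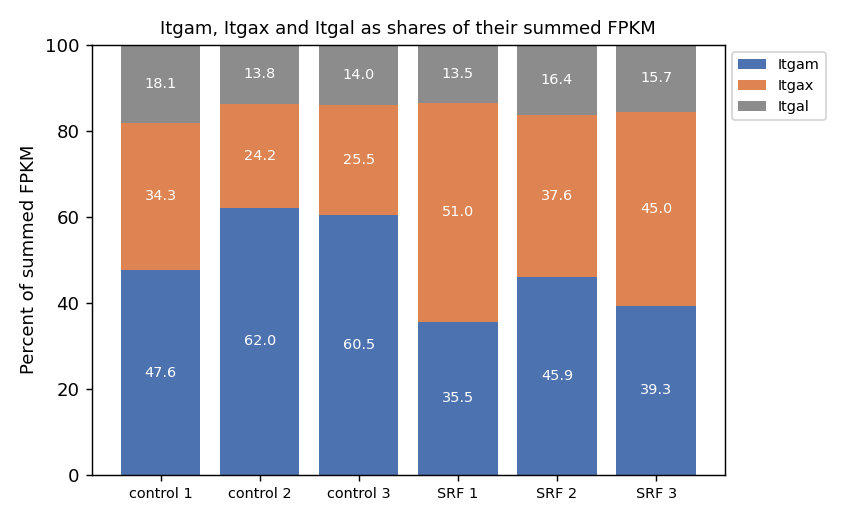
Share of Itgam, Itgax and Itgal in the sum of their FPKM for each of the 6 mice (y axis, percent, from 0 to 100). Itgax takes 24.2% to 34.3% in the control mice and 37.6% to 51.0% in the SRF mice.

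Against the beta 2 chain itself the alpha chains did not all keep pace. The FPKM ratio of Itgam to Itgb2 was 0.218, 0.470 and 0.436 in control mice and 0.202, 0.147 and 0.167 in SRF mice. For Itgal to Itgb2 it was 0.0832, 0.105 and 0.101 in control mice and 0.0768, 0.0524 and 0.0665 in SRF mice. Both ratios were lower in every SRF mouse (exact permutation test, two-sided, p = 0.1, adjusted 0.2). For Itgam the margin was small, 0.218 in control mouse 1 against 0.202 in SRF mouse 1. Since Itgam itself overlapped and Itgal was higher in SRF, both ratios follow the difference in Itgb2. Their p carries no weight apart from it. The ratio of Itgax to Itgb2 overlapped, at 0.157 to 0.184 in control and 0.120 to 0.289 in SRF (exact permutation test, p = 0.7). Itgad, the remaining alpha partner of beta 2, lies next to Itgax (chr7:128154376-128223816) and is not listed in the tables.

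Most macrophage markers were higher in SRF, as were Itgb2 and Itgax, but not all were. Of 14 macrophage markers tested, 12 were higher in SRF, their median log2 fold change was 0.59, and their summed level was 1282 to 1642 CPM in control mice and 2903 to 4296 CPM in SRF mice. Lyz2 gave most of that sum, and without it the other 13 summed to 539 to 644 CPM in control and 825 to 992 CPM in SRF, a ratio of means of 1.46. DESeq2 called 4 of them: Cd68, Laptm5, Lyz2 and Tyrobp. Cd68, a lysosomal protein of macrophages, averaged 77.9 ± 10.3 CPM in control and 161 ± 26.1 CPM in SRF, and Adgre1 (F4/80) averaged 16.2 ± 4.50 and 30.1 ± 12.3 CPM. Csf1r, the receptor for the macrophage growth factor CSF-1, had a log2 fold change of -0.03 (SE 0.11) and Mertk, a receptor for dying cells, of -0.11 (SE 0.13), and the groups overlapped for Mrc1 and Cd163. In bulk tissue, more cells of a type and more RNA per cell cannot be told apart. Which cells held the RNA of each marker, Mertk included, cannot be read from it either.

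Taken relative to the mean log2 CPM of these 14 markers, Itgb2 was at -0.97, -1.18 and -1.19 in control mice and at -0.71, -0.38 and -0.29 in SRF mice. Itgax was at -3.16, -3.10 and -3.05 in control mice and at -2.11, -2.97 and -2.21 in SRF mice. Both were thus higher relative to the list in every SRF mouse, by 0.65 and 0.67 on the log2 scale, although SRF mouse 2 lay close to the controls for Itgax. Itgal differed by 0.00, and Itgam was lower by 0.45 with overlap. The exact permutation test, two-sided, gave p = 0.1 for Itgb2 and Itgax (0.2 adjusted over 10 such values), 0.9 for Itgal and 0.4 for Itgam. The 14 markers were weighted equally here, and Lyz2 had by itself a log2 fold change of 1.49 (SE 0.21). RNA of other cells in these markers, such as Mertk, was not separated.

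Markers of other leukocytes that can carry these chains were also read. Of the neutrophil markers, Ly6g, Ngp and Elane are not listed. Of the 5 tested, 3 had a log2 fold change above 0, and Csf3r, at 3.06 ± 0.681 CPM in control and 5.73 ± 2.06 CPM in SRF, was the 1 with an unadjusted p under 0.05 in edgeR (log2 fold change 0.90, SE 0.37). S100a8, too low to be tested, averaged 1.92 ± 0.385 CPM in control and 1.72 ± 0.666 CPM in SRF, and the summed list was 19.7 to 29.0 CPM in control and 23.4 to 25.0 CPM in SRF. The T cell gene Cd3e averaged 0.987 ± 0.414 CPM in control and 0.605 ± 0.244 CPM in SRF, and the summed T and NK list was lower in every SRF mouse (18.4 to 25.1 CPM) than in any control (31.3 to 33.1 CPM). The summed B and plasma cell list was 10.9 to 17.4 CPM in control and 18.9 to 27.1 CPM in SRF, with Cd22 called by DESeq2. Cd22 had above 50 counts in the SRF libraries alone, so among tested genes it had to differ. Jchain overlapped between the groups, and the list without it summed to 6.67 to 11.9 CPM in control and 12.8 to 14.3 CPM in SRF. The summed mast cell list was 44.0 to 52.9 CPM in control and 66.9 to 73.7 CPM in SRF, with Cma1 and Tpsb2 called by DESeq2 and Ms4a2 not listed. Kit, the most abundant gene of that list, was at 25.8 ± 1.08 and 27.7 ± 2.78 CPM (log2 fold change 0.10, SE 0.12), and Hdc had a log2 fold change of -0.66 (SE 1.01). Without Kit the list summed to 18.6 to 25.9 CPM in control and 41.5 to 43.3 CPM in SRF, a ratio of means of 1.90.

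The genes whose log2 CPM was most like that of Itgb2 over the 6 libraries were Tlr13 (Pearson r 0.997), Adam8 (0.995) and Cd5l (0.993). Over 6 libraries of which 3 are SRF, such values describe shared ordering and are given without a p.

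The alpha 4 pair did not separate the groups. Itga4 (ENSMUSG00000027009, chr2:79255426-79333123, plus strand) was at 28.2, 16.1 and 15.5 CPM in control mice and at 17.5, 18.8 and 26.8 CPM in SRF mice. The highest mouse of each group, control mouse 1 and SRF mouse 3, is the one rich in photoreceptor RNA. The log2 fold change was 0.08 (SE 0.29), and it was negative without control mouse 2 (-0.05), control mouse 3 (-0.07) or SRF mouse 3 (-0.13). Among the other 4 libraries Itga4 ran from 15.5 to 16.1 CPM in control and from 17.5 to 18.8 CPM in SRF.

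Itga4 overlaps Cerkl, a gene of the opposite strand that photoreceptors use, by 2581 bases of gene span, and 1124 of its 13978 exonic bases (8.04%) are shared. Cerkl was at 6.55, 5.70 and 4.59 CPM in control mice and 4.54, 4.18 and 9.52 CPM in SRF mice, and it too was highest in control mouse 1 and SRF mouse 3. Whether the counting used strand is not given in the sources used here, so reads of the shared bases cannot be told apart, and the part of photoreceptor RNA in the Itga4 level was not tested.

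**Figure D3:**
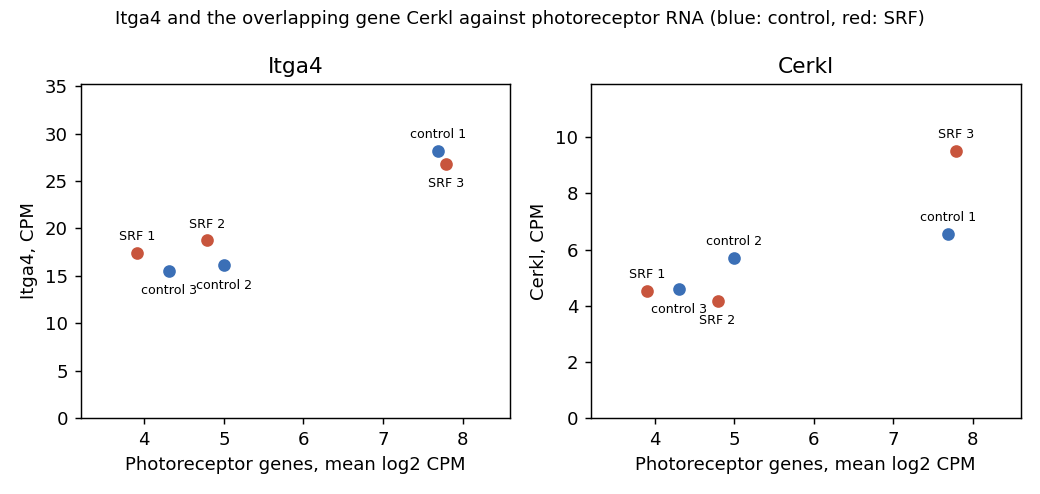
CPM of Itga4 (left) and of the overlapping gene Cerkl (right) against the mean log2 CPM of 18 photoreceptor genes in each library, with control in blue and SRF in red. Control mouse 1 and SRF mouse 3 lie at the right, near 7.7, and hold the highest Itga4 values, 28.2 and 26.8 CPM.

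Itgb7 (ENSMUSG00000001281, chr15:102215995-102231944, minus strand), the partner that lets alpha 4 bind MAdCAM-1, was at 2.43, 1.84 and 2.19 FPKM in control mice and at 1.75, 2.25 and 1.68 FPKM in SRF mice. The groups overlapped in FPKM, with SRF mouse 2 above 2 of the controls. Its CPM was 5.88 ± 0.794 in control and 5.01 ± 0.777 in SRF (log2 fold change -0.23, SE 0.25, adjusted p = 0.984 with edgeR). Relative to the macrophage markers Itgb7 was lower in every SRF mouse, by a mean of -0.81 on the log2 scale (exact permutation test, p = 0.1, adjusted 0.2). The mean log2 CPM of those markers was itself 5.01 to 5.31 in control mice and 5.60 to 6.01 in SRF mice. Since Itgb7 overlapped, this relative value follows in good part the higher marker list. The other beta partner of alpha 4, Itgb1, which most cells make, averaged 236 ± 38.1 CPM in control and 257 ± 20.3 CPM in SRF (log2 fold change 0.12, SE 0.15). The FPKM ratios of Itga4 to Itgb7 and to Itgb1 overlapped between the groups (exact permutation test, p = 0.4 and 1.0).

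Madcam1 (ENSMUSG00000020310, chr10:79664559-79668537, plus strand) had the largest fold difference of the 10 genes at a low level. Its counts were 8, 10 and 25 in the controls and 58, 64 and 65 after laser, or 0.50, 0.44 and 0.81 FPKM against 2.65, 3.10 and 2.80 FPKM. The SRF mice lay close together, and all of them lay far above the highest control. In CPM it was at 0.727 ± 0.275 in control and 3.45 ± 0.272 in SRF, a log2 fold change of 2.22 (SE 0.41). Madcam1 passed the filter on low counts (above 50 counts in at least 2 libraries) through the SRF libraries alone, so among tested genes it had to differ. Its adjusted p was 0.246 with edgeR and 0.00448 with DESeq2, with a range of 0.0015 to 1.0 over 25 settings, and DESeq2 did not call it without SRF mouse 2 (adjusted p = 0.112).

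Relative to the mean log2 CPM of 15 endothelial markers, Madcam1 was at -7.15, -7.51 and -6.50 in control mice and at -5.25, -4.93 and -4.63 in SRF mice, a difference of 2.12 with no overlap (exact permutation test, p = 0.1, adjusted 0.2). Madcam1 was tested through its SRF counts alone, so this p carries no weight of its own. None of the 15 markers was called by edgeR or DESeq2, 0 passed an unadjusted p under 0.05 in edgeR, their median log2 fold change was 0.03, and their summed level was 2490 to 2953 CPM in control and 2288 to 3081 CPM in SRF. The genes most like Madcam1 in log2 CPM over the 6 libraries were Clec12a (Pearson r 0.992), Cybb (0.990) and Adora1 (0.990). Over 6 libraries of which 3 are SRF, these values too describe shared ordering and do not place the RNA in a cell type. Of 7 markers of high endothelial venules and mucosal vessels, Glycam1, Chst4 and Nkx2-3 are not listed. Selp had a log2 fold change of 0.65 (SE 0.29) from a level of 6.34 ± 1.56 CPM in control, and Sele was at 1.43 ± 0.0575 and 2.64 ± 1.66 CPM. Fut7 averaged 0.186 ± 0.125 CPM in control and 0.277 ± 0.149 CPM in SRF, and Ackr1 averaged 2.82 ± 1.84 and 3.28 ± 2.24 CPM. Which cells held the Madcam1 RNA cannot be read from bulk tissue.

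Madcam1 and Icam1 are both known as targets of NF-kB in endothelium, and their upstream windows (RefSeq, GRCm38.p6, plus strand, chr10:79664309-79664558 and chr9:21015690-21015939) are shown for that reason, 5′ to 3′, with capitals for matches to the NF-kB consensus on either strand.
Madcam1: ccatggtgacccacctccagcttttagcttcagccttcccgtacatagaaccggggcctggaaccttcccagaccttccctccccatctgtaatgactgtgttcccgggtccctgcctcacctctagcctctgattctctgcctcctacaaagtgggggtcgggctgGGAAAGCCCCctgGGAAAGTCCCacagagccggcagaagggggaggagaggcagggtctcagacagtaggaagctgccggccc
Icam1: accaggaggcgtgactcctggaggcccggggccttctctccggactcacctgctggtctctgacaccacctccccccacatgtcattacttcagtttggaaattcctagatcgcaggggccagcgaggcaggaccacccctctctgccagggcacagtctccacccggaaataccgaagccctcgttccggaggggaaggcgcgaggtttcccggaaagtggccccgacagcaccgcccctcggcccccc
The Madcam1 window holds a pair of matches on the minus strand, 83 to 74 and 70 to 61 bases before the start, which read GGAAAGCCCC and GGAAAGTCCC in the sequence shown. No match was found in the Icam1 window. The pattern searched opens with GGG and closes with CC, so sites that depart from it are not marked, and nothing about NF-kB at Icam1 can be read from its absence there. Of 32851 promoter windows, 7.25% held a match.

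The other 3 ligands were the most abundant of the 10 genes. Vcam1 (ENSMUSG00000027962, chr3:116109949-116129688, minus strand), the ligand of alpha 4 beta 1, was at 19.97, 22.55 and 25.84 FPKM in control mice and at 21.18, 25.76 and 30.94 FPKM in SRF mice. The groups overlapped, with SRF mouse 3 the highest. Its log2 fold change was 0.12 (SE 0.17), and it was -0.04 without that mouse. Vcam1 exceeded Madcam1 in FPKM by 39.9-, 51.3- and 31.9-fold in control mice and by 7.99-, 8.31- and 11.1-fold in SRF mice (exact permutation test, p = 0.1, adjusted 0.2). So the levels of the ligands of the alpha 4 integrins stood nearer each other in every SRF mouse, with Vcam1 still the higher. Since Vcam1 itself overlapped, this ratio follows the difference in Madcam1, and its p carries no weight of its own.

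Icam1 (ENSMUSG00000037405, chr9:21015985-21028817, plus strand), the ligand of LFA-1 and Mac-1 that inflammatory cytokines induce on endothelium and also on the RPE, was at 26.80, 29.82 and 34.67 FPKM in control mice and at 35.02, 39.33 and 37.96 FPKM in SRF mice. The groups did not overlap in FPKM, though SRF mouse 1 exceeded control mouse 3 by little, and they overlapped in TMM-normalized CPM (78.7 ± 10.1 in control, 93.5 ± 5.14 in SRF). The log2 fold change was 0.25 (SE 0.13), with an adjusted p of 0.796 from edgeR and 0.930 from DESeq2. Icam2 (ENSMUSG00000001029, chr11:106377656-106388075, minus strand), the constitutive endothelial ligand of LFA-1, was at 32.02, 33.11 and 24.60 FPKM in control mice and at 28.43, 26.35 and 18.92 FPKM in SRF mice. It overlapped between the groups, SRF mouse 3 being the lowest, and its log2 fold change was -0.34 (SE 0.20, adjusted p = 0.860 in edgeR). The FPKM ratio of Icam1 to Icam2 was 0.837, 0.901 and 1.41 in control mice and 1.23, 1.49 and 2.01 in SRF mice, with overlap (exact permutation test, p = 0.2). Relative to the endothelial markers Icam2 was lower by 0.37 on the log2 scale in SRF and below every control (exact permutation test, p = 0.1, adjusted 0.2), Icam1 was higher by 0.24 with overlap (p = 0.2, exact), and Vcam1 was higher by 0.09 (p = 0.8, exact).

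**Figure D4:**
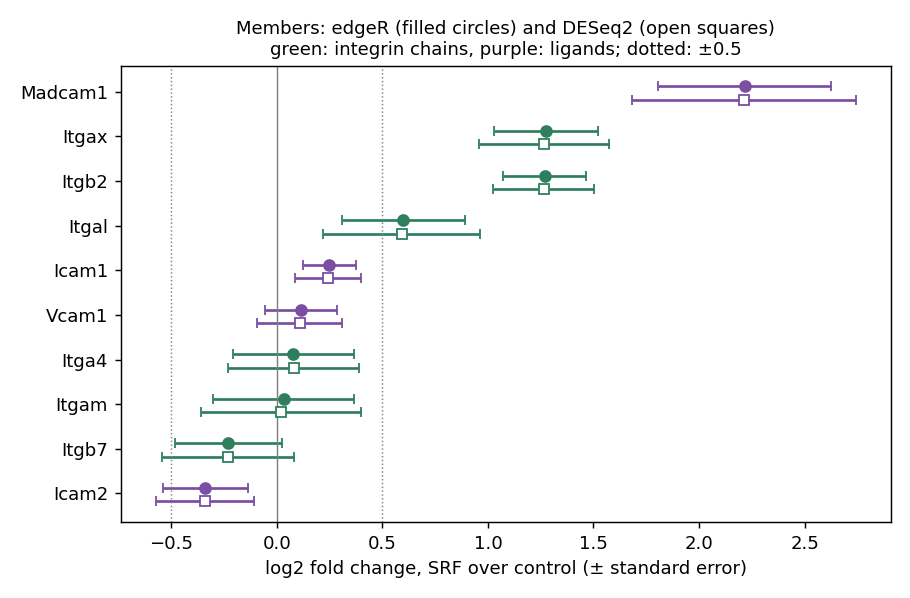
Log2 fold change of SRF over control for the 10 genes from edgeR (filled circles) and DESeq2 (open squares), with bars of 1 standard error, integrin chains in green, ligands in purple, and dotted lines at 0.5 either way. Madcam1, Itgax and Itgb2 lie at 2.22, 1.27 and 1.27, and Icam2 lies lowest at -0.34.

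Set side by side, 5 of 6 integrin chains and 3 of 4 ligands had a log2 fold change above 0, against 50.3% of all tested genes. The median was 0.34 over the chains, 0.18 over the ligands and 0.0012 over all tested genes. DESeq2 called 2 of the 6 chains and 1 of the 4 ligands as higher, against 0.803% of all tested genes, and SRF mice lay above all controls for 3 chains and 1 ligand, against 6.71%. The ligand in both counts is Madcam1, which entered the test through its SRF counts alone. Its place in both counts therefore carries no weight of its own. Summed over the 6 chains, the level was 59.0 to 62.6 CPM in control and 75.8 to 103 CPM in SRF. Without Itgb2 the other 5 chains overlapped in sum by a small margin, at 41.8 to 46.3 CPM in control and 46.2 to 59.4 CPM in SRF. The highest of these control sums was that of control mouse 1, where Itga4 was at 28.2 CPM. Summed over the 4 ligands the level also overlapped, at 177 to 207 CPM in control and 194 to 221 CPM in SRF. Each side thus held genes whose groups did not overlap and genes whose groups did, and the chains were not tested against the ligands.

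Ordered by mean FPKM over the 6 libraries, the levels ran from Icam1 (33.9), Icam2 (27.2) and Vcam1 (24.4) through Itgb2 (9.97) to Itgam (2.29), Itga4 (2.09), Itgb7 (2.02), Itgax (1.82), Madcam1 (1.72) and Itgal (0.728). The steps from Vcam1 to Itgb2 and from Itgb2 to Itgam held in 6 of 6 libraries. Every other step between neighbours held in 3 to 5 libraries, so the order within the 3 abundant ligands and within the genes near 2 FPKM is not resolved.

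Of 21 further integrin chains, 19 are listed and 17 were tested, with 10 higher, 7 lower and a median log2 fold change of 0.08. None was called by edgeR. DESeq2 called Itgb5, a partner of alpha v that the RPE uses in the uptake of outer segments, as higher, at 94.5 ± 2.53 CPM in control and 199 ± 17.8 CPM in SRF (log2 fold change 1.07, SE 0.11). It called as lower Itgav, the alpha v chain itself, at 291 ± 2.77 and 196 ± 17.3 CPM (-0.57, SE 0.11), and Itgb8, a further partner of alpha v, at 844 ± 27.3 and 588 ± 31.7 CPM (-0.52, SE 0.10). Itgb8 had a log2 fold change under 0.5 in size, and so was not called, without control mouse 3 (-0.49) or SRF mouse 2 (-0.48). Of 12 RPE markers, 7 were lower and 5 higher in SRF (median log2 fold change -0.29), and DESeq2 called Lrat and Rgr lower. Their summed level was 49607 to 57068 CPM in control and 35587 to 44190 CPM in SRF, and without Rgr it overlapped, at 25059 to 29955 CPM and 20065 to 26630 CPM. The 5 higher ones were Best1 and the pigment genes Dct, Pmel, Slc45a2 and Tyrp1 (log2 fold changes of 0.11 to 0.32, none called), and the part of RPE RNA in the integrin values was not tested. Itgb2l, like Itgad, is not listed.

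**Figure D5:**
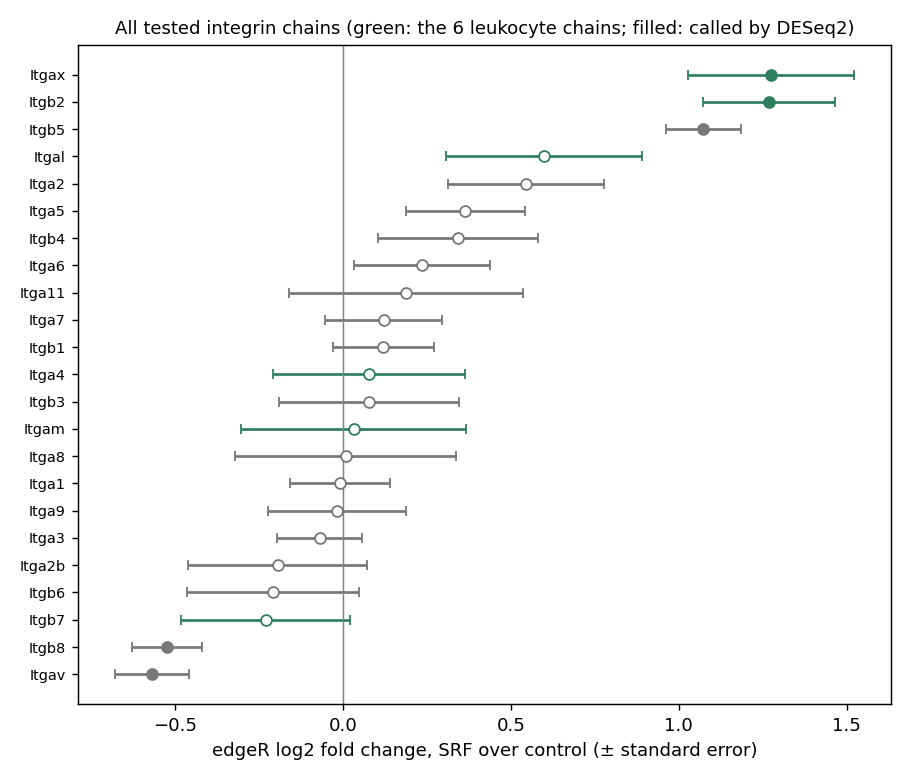
edgeR log2 fold change of SRF over control, with bars of 1 standard error, for all 23 tested integrin chains; the 6 leukocyte chains are in green and genes called by DESeq2 are filled. Itgax, Itgb2 and Itgb5 lie above 1, and Itgb8 and Itgav lie at -0.52 and -0.57.

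Among 29 other adhesion genes of leukocytes and endothelium, 25 are listed and 21 were tested, with 17 higher, 4 lower and a median log2 fold change of 0.05. Neither edgeR nor DESeq2 called any of them, with 1 higher and 1 lower at an unadjusted p under 0.05. P-selectin (Selp) averaged 6.34 ± 1.56 CPM in control and 9.94 ± 2.64 CPM in SRF, and its ligand Selplg averaged 13.2 ± 2.08 and 18.5 ± 3.90 CPM. Glycam1, Cd99, Icam5 and Chst4 are not listed.

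Of 28 genes of integrin activation and signalling, all were listed and 26 were tested, with 19 higher, 7 lower and a median of 0.22. edgeR called none, and 6 passed an unadjusted p under 0.05, all higher in SRF. DESeq2 called Vav1, an exchange factor of blood cells that acts downstream of integrins, at 3.62 ± 0.582 CPM in control and 8.29 ± 1.46 CPM in SRF (log2 fold change 1.19, SE 0.26). That call was lost in DESeq2 without control mouse 1 (adjusted p = 0.0708), control mouse 2 (0.207), SRF mouse 2 (0.442) or SRF mouse 3 (0.0630), and its adjusted p ran from 0.0168 to 1.0 over 25 settings. Fermt3 (kindlin-3), which activates integrins in blood cells, was at 10.8 ± 2.17 and 18.5 ± 2.77 CPM, the adaptor Fyb at 15.8 ± 2.85 and 26.9 ± 8.76 CPM and the adaptor Lcp2 at 5.55 ± 1.66 and 9.25 ± 0.590 CPM. In DESeq2 the call was gained for Fermt3 and Lcp2 without control mouse 3 and for Fyb without SRF mouse 3. All 4 are genes of leukocytes, and the part of the higher macrophage RNA in their values was not tested.

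A list of 21 genes held cytokines, receptors and transcription factors that induce the ligands on endothelium, and NF-kB inhibitors such as Nfkbia and Tnfaip3. Of these, 20 are listed and 18 were tested, with 13 higher, 5 lower and a median of 0.15. Neither tool called any, and 3 were higher at an unadjusted p under 0.05 in edgeR. Il4ra, a receptor chain for IL-4 and IL-13, was at 17.6, 19.3 and 16.2 CPM in control mice and 26.7, 26.8 and 23.2 CPM in SRF mice (log2 fold change 0.53, SE 0.13), and DESeq2 called it without SRF mouse 3. Tnfrsf1b, a receptor for TNF, was at 11.3, 14.5 and 15.6 CPM in control mice and 18.1, 24.3 and 25.0 CPM in SRF mice (0.70, SE 0.20). Both were above all controls in every SRF mouse. Among the 5 lower genes, the cytokines Il1a and Il1b had log2 fold changes of -0.82 (SE 0.75) and -1.04 (SE 0.52), with overlap. Both passed the filter on low counts through control libraries alone. Lta is not listed.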

How the data were processed

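RNA-seq of RPE-choroid from 3 control and 3 SRF mice was analysed, each mouse being 1 library grouped by its label. The authors filtered reads with FASTP, quantified genes with StringTie and deposited read counts per gene, not normalized, together with FPKM values, scaled per transcript length and library size. The aligner, genome build and strandedness are not given in the sources used here. Of 15663 identifiers, 15659 were found in GENCODE M21 (GRCm38), from which positions were taken. Promoters were taken from RefSeq (GRCm38.p6).

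Only genes above 50 counts in 2 or more libraries were tested (13454; 2209 were not) with edgeR 4.0.16 (R 4.3.3), TMM normalization and glmQLFit in its older form (legacy = TRUE), p-values being adjusted by Benjamini-Hochberg over all tested genes. A call needed an adjusted p below 0.05 and a log2 fold change of 0.5 or more in size. CPM are TMM-normalized (factors 0.978 to 1.03), a prior count of 2 was added for log2 CPM in the marker comparisons and correlations, and errors are SDs over 3 mice. DESeq2 1.42.0 and limma 3.58.1, other normalizations and filters, a replicate block and leaving out mice were alternatives. Single values were compared by two-sided exact permutation tests in families of 12 and 10. Scripts were tested on simulated counts first. The members, gene lists and marker lists were chosen with earlier results of these data known. The genes named are the members, list genes called by edgeR or DESeq2, up to 5 more per list by unadjusted p under 0.05, Itgb1, defining markers and the 3 genes most like Itgb2 and Madcam1. Further genes (Selp, Sele, Selplg, Ackr1, Fut7, Cerkl and the marker genes given without a call) were named after their values were seen. Some genes that this rule covers are not reported here.

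Totals were 13667310 to 24356023 counts per library. The median SE of the log2 fold change was 0.19.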

Additional observations from a re-analysis of the deposited data

How the results depend on the processing

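Itgb2, Itgax, Itgal, Madcam1 and Icam1 stayed higher and Icam2 and Itgb7 lower in all 25 alternative settings, with log2 fold changes of 1.11 to 1.45, 0.83 to 1.42, 0.28 to 0.69, 1.29 to 2.61, 0.14 to 0.35, -0.48 to -0.12 and -0.37 to -0.06. Itgb2, Itgax and Madcam1 were called in 8, 6 and 7 settings, all with DESeq2. edgeR called no gene, DESeq2 called 153, and 1 each was called with legacy = FALSE, limma-voom, library totals alone, no filter, a filter of 10 counts in 3 libraries and a photoreceptor covariate, and 2 each with limma on log2(FPKM + 0.1) and log2(FPKM + 1). With 1 mouse left out, edgeR called 0 to 5 genes (5 without control mouse 1) and DESeq2 67 to 361 (67 without SRF mouse 2), edgeR called 0 members, and DESeq2 called 2 to 3 against 3 in full. Leaving out control mouse 1 and SRF mouse 3 together, chosen after seeing the data, left 154 genes called by edgeR and 503 by DESeq2, 2 members in DESeq2 and a ligand median of 0.014 against 0.18. edgeR's adjusted p was then 0.0513 for Itgb2, 0.120 for Itgax and 0.0833 for Madcam1. The signs of Itgam, Itga4 and Vcam1 were not stable. With 1 mouse left out they ran from -0.27 to 0.23, -0.13 to 0.41 and -0.04 to 0.24 in edgeR and from -0.28 to 0.22, -0.14 to 0.40 and -0.052 to 0.24 in DESeq2. Without both photoreceptor-rich libraries Itgam was at -0.33 (DESeq2 -0.34) and Vcam1 at -0.13 (DESeq2 -0.14). The causes were not tested. Mouse numbers do not pair the samples: same-numbered mice are different animals whose deviations correlated at -0.48, 0.49 and -0.30, and 1 of 6 libraries was closest to its own number. With the replicate block edgeR called 0 genes, with 1206 at an unadjusted p under 0.05 against 943, and it changed no call of a member. With 8 to 65 counts, Madcam1 has the least depth of the 10 genes.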

Other observations

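Other cells that can carry leukocyte integrins or their ligands were described by their markers. All 5 tested microglia markers had a log2 fold change above 0 (median 0.49), and their summed level overlapped between the groups, at 226 to 435 CPM among control mice and 312 to 515 CPM among SRF mice. Of the markers of dendritic cells, which also carry Itgax, 3 of 10 were abundant enough to be tested (median log2 fold change 0.17). The summed level overlapped, at 55.4 to 63.6 CPM and 61.7 to 82.1 CPM. Those 3, Zbtb46, Cd209a and Irf8, gave most of it. Of the untested ones, Flt3 averaged 1.55 ± 0.166 CPM in control and 0.999 ± 0.351 CPM in SRF, without overlap. Xcr1 (2.27 and 1.18 CPM) and Ccr7 (1.40 and 1.32 CPM) averaged lower in SRF, with overlap. Clec9a, Batf3, Clec10a and Siglech averaged higher in SRF, also with overlap. Of 12 fibroblast and mural cell markers, 10 were higher in SRF and 2 lower (median 0.28), again with overlap of the summed levels. None of these 3 lists held a gene called by edgeR or DESeq2, and at an unadjusted p under 0.05 edgeR had 2 microglia, 1 dendritic cell and 2 fibroblast or mural cell markers higher in SRF.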
